A study of Homo sapiens with 2 samples.

Results

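The TRIM family of ubiquitin ligases was examined in the human colon cancer line RKO with and without a hairpin against BCLAF1-L, a form of the nuclear protein BCLAF1. Members were all genes whose only gene symbol on the array matches TRIM followed by digits, which gave 57 of the 19775 genes with such a probe set. The RKO cells had been infected with a retrovirus carrying a hairpin against luciferase (sh-Luci) or against BCLAF1-L (sh-BCLAF1-L) and selected with puromycin at 2 ug/ml. Both groups therefore share viral infection and drug selection. Each group was 1 array, with no replicate, and only 1 hairpin against BCLAF1-L was measured, so all values are single measurements, no p-value is given, and hairpin and array effects cannot be told apart.

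TRIM proteins take their name from a tripartite motif of a RING finger, 1 or more B-box zinc fingers and a coiled coil. The RING finger recruits a ubiquitin-conjugating enzyme, so most members act as E3 ubiquitin ligases, and the domain after the coiled coil, most often a PRY-SPRY domain, selects the target. Some members are induced by interferon and act in antiviral defence, whereas others serve in chromatin, muscle or neuronal functions. The comparison asks whether the transcripts of the members known to be interferon-inducible (TRIM5, TRIM14, TRIM21, TRIM22, TRIM25 and TRIM38) differ between the hairpins otherwise than the rest of the family.

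The 6 inducible members were not taken for their promoters, so the letters of the interferon-stimulated response element were looked up in RefSeq promoters (GRCh38.p14, 250 bases before to 50 after a start). The search used GAAANNGAAA on both strands (TTTCNNTTTC on the other), overlapping matches allowed. Of the 57 members, 43 had an entry, among them 5 of the 6 inducible ones; TRIM22 had none. The letters were in 3 of these 5 (TRIM5, TRIM14 and TRIM21), in 5 of 38 other members (TRIM2, TRIM16, TRIM26, TRIM44 and TRIM69) and in 4.38% of all 27305 genes of the table. Per promoter, 3.57% of all 35116 held them. TRIM25 and TRIM38 had no match in this window. The sequences below show the matches of TRIM5 and TRIM14, which lie close before the start, and, for comparison, those of TRIM26 and TRIM69, which are outside the 6 but have also been described as interferon-inducible. Each runs 5′ to 3′ on the gene's strand with the matching letters in capitals.
TRIM5, chr11:5685075-5685174, minus strand, bases -100 to -1 from the start: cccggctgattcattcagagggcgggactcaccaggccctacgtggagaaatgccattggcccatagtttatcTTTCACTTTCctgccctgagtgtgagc
TRIM14, chr9:98119223-98119322, minus strand, bases -100 to -1: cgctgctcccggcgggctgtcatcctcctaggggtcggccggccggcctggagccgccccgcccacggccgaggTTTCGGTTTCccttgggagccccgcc
TRIM26, chr6:30213527-30213626, minus strand, bases -220 to -121: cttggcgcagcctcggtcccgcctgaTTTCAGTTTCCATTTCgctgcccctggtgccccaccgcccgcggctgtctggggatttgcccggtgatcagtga
TRIM69, chr15:44736428-44736527, plus strand, bases -100 to -1: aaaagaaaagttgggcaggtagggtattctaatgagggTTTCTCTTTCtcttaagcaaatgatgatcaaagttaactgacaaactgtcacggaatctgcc
TRIM21, chr11:4393670-4393685, minus strand, bases 18 to 33 after the start: GAAACTGAAAGTGAAA
In TRIM21 and TRIM26 the capitals hold 2 overlapping matches each. The shorter letters TTCNNNGAA, the pattern of the gamma-activated site, were in none of the 5 inducible promoters, in 7 of 38 other members and in 9.38% of all genes. A match is a description of the letters and not a binding site.

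The values are probe set intensities on a linear scale. A gene took its brightest probe set, a difference is the log2(intensity + 1) of sh-BCLAF1-L minus that of sh-Luci, and a gene was called detected when its mean reached an intensity of 63.7. By this measure 46 of the 57 members were detected and 11 were not. The median intensity was 82.7 on the sh-Luci array and 84.5 on the sh-BCLAF1-L array, and the 18 bacterial biotin spike-in probe sets were all higher on the latter, with a median difference of 0.20. BCLAF1 read 2505 with sh-Luci and 945 with sh-BCLAF1-L and was lower on all 6 of its probe sets. Markers of the labelled epithelial origin were present in part, with EPCAM at 477 and 472 and KRT18 at 979 and 674, while CDH1 (24.6 and 35.6) and KRT19 (46.4 and 61.1) lay below detection. Summed intensities were 694 and 705 for 8 blood cell markers, 674 and 744 for 6 fibroblast markers and 383 and 395 for 5 endothelial markers. Detected were 5 of the 8 blood cell, 4 of the 6 fibroblast and 2 of the 5 endothelial markers, among them HBB (196 and 226), COL1A1 (355 and 397) and VWF (177 and 194), while PTPRC, PDGFRB and CDH5 lay below detection. None of these markers was at 0. Detection is a threshold on intensity alone, which such markers also passed, and whether a gene that passes it is expressed was not tested. The part of these markers in the TRIM values was not tested either.

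No TRIM transcript stood far from its control value. Of the 46 detected members, none was 1.5-fold higher or lower, against 0.434% and 0.2% of all 14507 detected genes. A lower threshold was set at 0.322 on the log2 scale, written as 0.32 from here on. Past it, 2 members were higher (TRIM45 and TRIM10), against 4.16% of all detected genes, and 1 was lower (TRIM31), against 2.21%. These 3 of 46 members are close to the 6.36% of detected genes past 0.32 in either direction. The differences of the 46 members had a median of 0.025 and an SD of 0.15, beside a median of 0.019 and an SD of 0.17 for all detected genes. Below 0 lay 21 members, or 45.7%, beside 45.0% of all detected genes. All but 1 of the members, 45 of 46, lay inside the central 95% of detected genes, from -0.31 to 0.37. Within a gene, the differences of its probe sets had a pooled SD of 0.16 on the log2 scale over 6752 genes, and of 0.13 over the 23 members with several detected probe sets. This spread holds transcript differences as well as technical error and does not cover cultures or arrays.

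**Figure D1:**
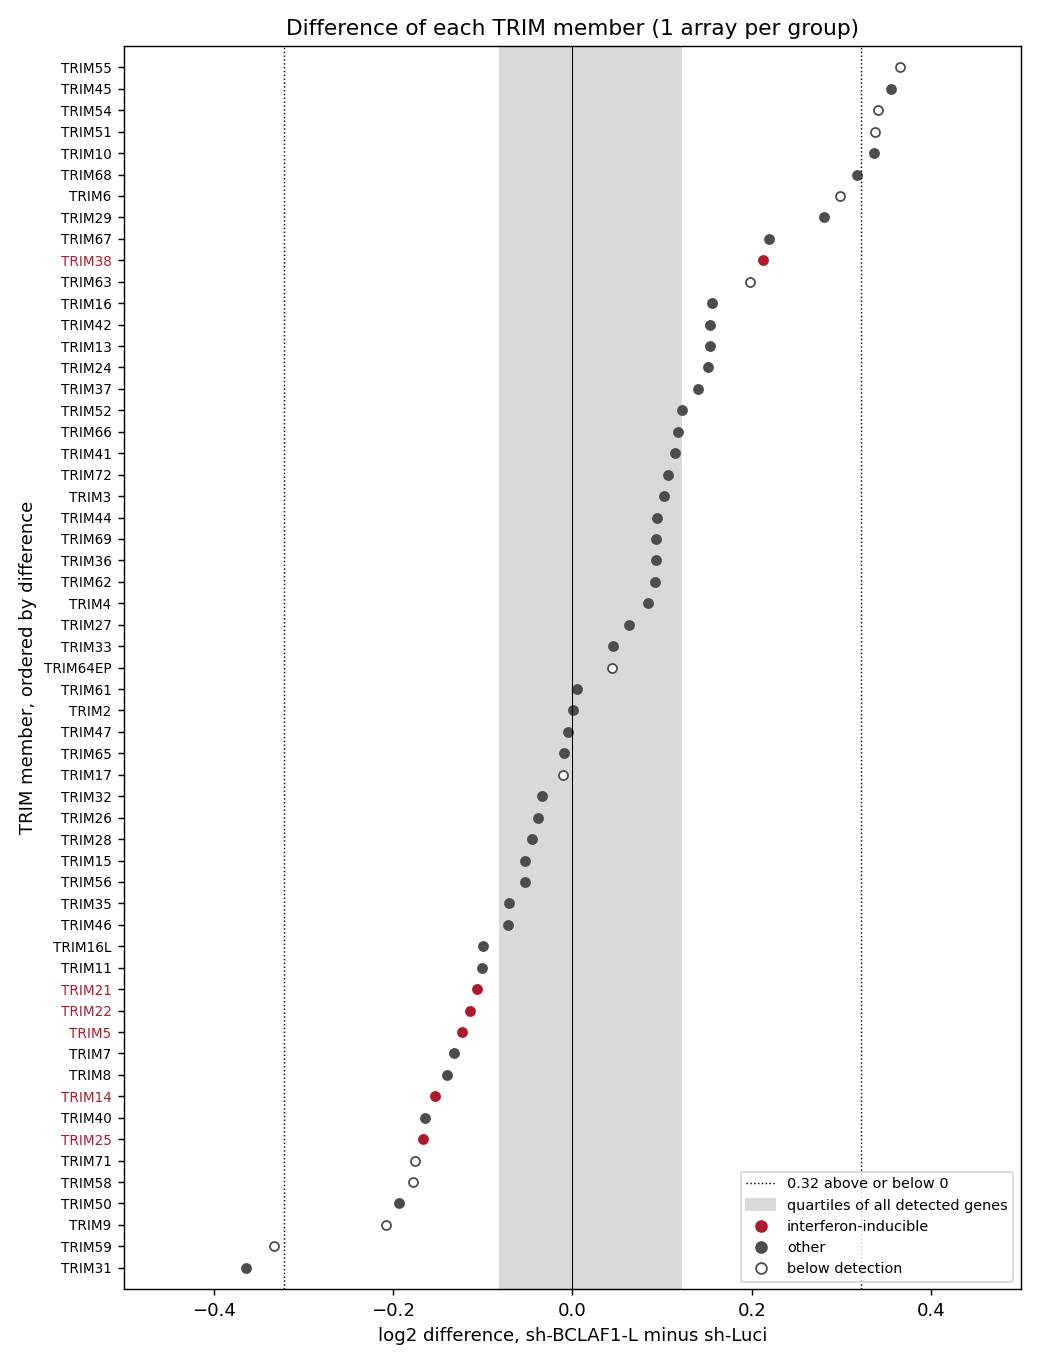
Log2 difference (sh-BCLAF1-L minus sh-Luci, x axis) of each of the 57 TRIM members, 1 point a gene in order of the difference, with filled points for detected and open points for undetected genes. The inducible members in red, other than TRIM38, lie between -0.17 and -0.11, inside the dotted lines at 0.32 on either side of 0, and left of the grey band that spans the quartiles of all detected genes.

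The interferon-inducible members were lower with sh-BCLAF1-L in 5 of 6 cases, each by a small amount. This share was 83.3% of a small group, beside 45.0% of all detected genes. TRIM25, the ligase that ubiquitinates the RNA sensor RIG-I, read 1183 with sh-Luci and 1053 with sh-BCLAF1-L, a difference of -0.17 or 1.12-fold. TRIM14, a member without a RING finger that acts as an adaptor of MAVS on mitochondria, read 1248 and 1122, a difference of -0.15. TRIM5, which binds the capsid of incoming retroviruses, read 790 and 725, a difference of -0.12. The next values belong to members with 1 probe set each. TRIM22, an antiviral member strongly induced by interferon, read 328 and 303, a difference of -0.11. TRIM21, the cytosolic antibody receptor also known as the Ro52 autoantigen, read 270 and 250, a difference of -0.11. The 5 differences span a range of only 0.06, less than the 0.16 between probe sets of a gene, so no order among them can be read. Between 11.6% (TRIM25) and 20.3% (TRIM21) of all detected genes had a difference as low or lower.

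TRIM38, a ligase that restrains Toll-like receptor and TNF signalling, was the exception on its brightest probe set. That probe set read 676 with sh-Luci and 784 with sh-BCLAF1-L, a difference of 0.21, and its name (_x_at) marks probes that can match several transcripts. The other 3 probe sets of TRIM38 read 447 and 418, 352 and 332, and 318 and 294, with differences of -0.10, -0.08 and -0.11. The choice of probe set therefore decides the direction of TRIM38, whose median over its 4 probe sets was -0.09. The names of the other 3 (_s_at) also mark probes that can match several transcripts. So do the names of the brightest probe sets of TRIM5, TRIM14 and TRIM22.

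Further probe sets of the other inducible members were mostly on the lower side too. The second probe set of TRIM25 read 194 and 181, a difference of -0.09. TRIM14 had detected probe sets at 831 and 721 (-0.20), 221 and 168 (-0.39, past the threshold) and 75.5 and 87.7 (0.21), and a further one below detection at 36.2 and 35.8. The second probe set of TRIM5 lay below detection at 22.6 and 31.9 and differed by 0.48, so its median over both probe sets was 0.18. Of the 13 detected probe sets that the 6 members have, 11 were lower, or 84.6%, beside 46.1% of all 26452 detected probe sets with 1 symbol. Probe sets of a gene share its RNA and are not independent of each other.

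**Figure D2:**
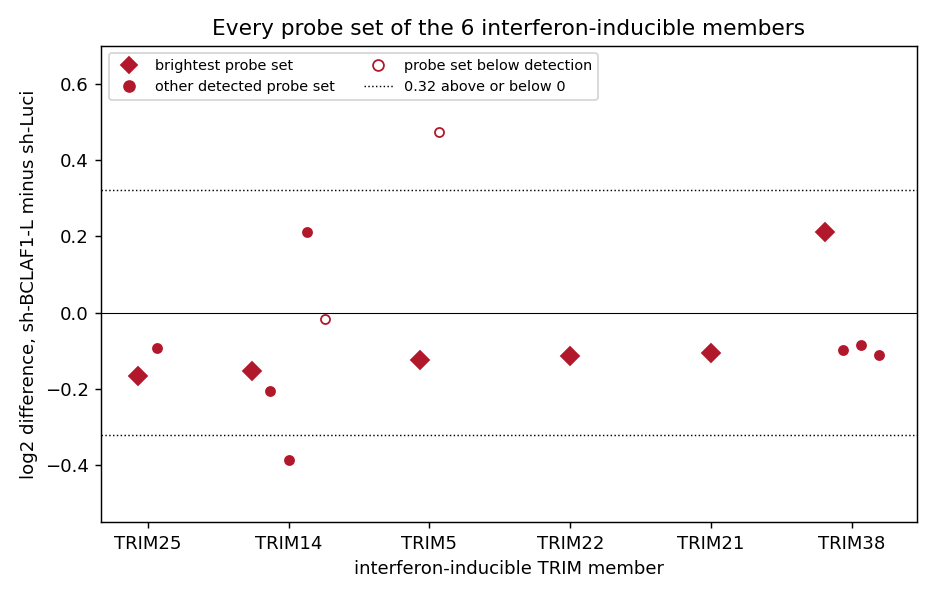
Log2 difference (y axis) of every probe set of the 6 interferon-inducible members, with a diamond for the brightest probe set of a gene and open circles for probe sets below detection. The brightest probe set of TRIM38 stands at 0.21 above its other 3, which lie between -0.11 and -0.08.

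The median difference of the 6 inducible members was -0.12 (quartiles -0.15 and -0.11), and that of the 40 other detected members was 0.074 (quartiles -0.053 and 0.13). The gap between these medians was -0.19, a 1.14-fold difference. The ranges overlapped, with the inducible members between -0.17 and 0.21 and the others between -0.36 and 0.36. Of the 40 other members, 16 were lower, or 40%, beside 45.0% of all detected genes. Of these 16, 5 (TRIM31, TRIM50, TRIM40, TRIM8 and TRIM7) were at or below TRIM21, the highest of the 5 lower inducible members. With 1 array per group the gap cannot be tested. No inducible member passed 0.32 on its brightest probe set, in either direction.

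**Figure D3:**
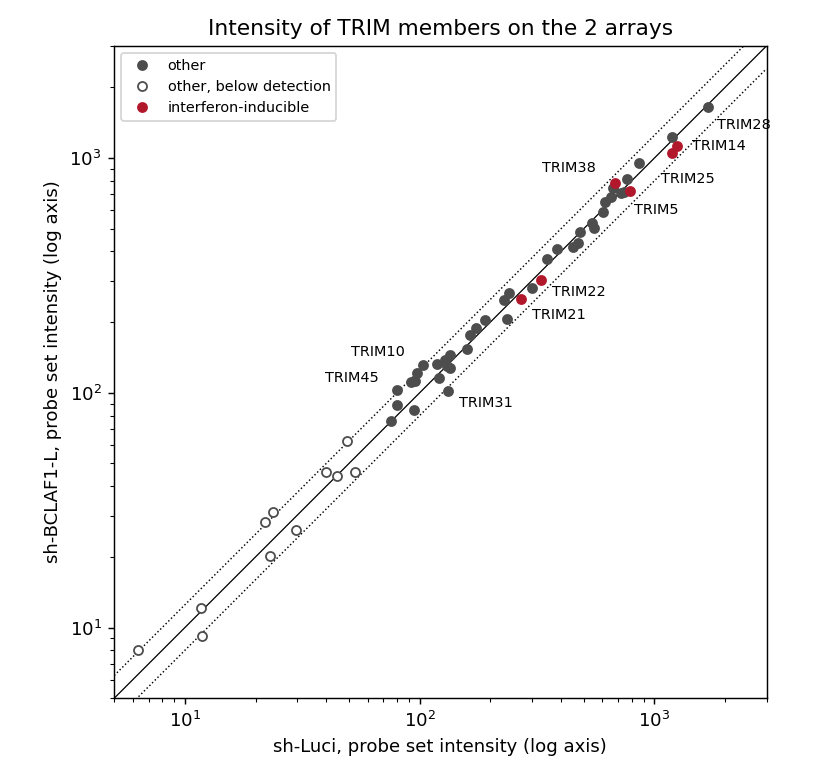
Intensity of each member's brightest probe set with sh-Luci (x axis) and sh-BCLAF1-L (y axis), both on log axes, with the line of equality and dotted lines at a log2 ratio of 0.32. The detected members lie along the line, with TRIM45 and TRIM10 above the upper dotted line and TRIM31 below the lower one.

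Among genes of the pathways in which the inducible TRIM proteins act, 5 were lower by more than 0.32 on their brightest probe set. These were IRF7, IFIH1, IRF9, ISG15 and USP18. Others, such as ZC3HAV1 (0.0016), IFNAR1 (-0.09), JAK1 (0.11), TYK2 (0.12) and STING1 (0.12), differed by no more than the TRIM members by that measure. However, the detected probe sets of ZC3HAV1 ran from -0.36 to 0.0016, of IFNAR1 from -0.49 to -0.09 and of JAK1 from -0.57 to 0.14. TYK2 and STING1 had 1 detected probe set each. The RNA sensing and interferon signalling list had 16 genes with a probe set, of which DHX58 lay below detection. Of the 15 detected genes, 9 were lower, or 60%, beside 45.0% of all detected genes. Lower by more than 0.32 were 3, beside 2.21% of all detected genes, and none was higher by as much, beside 4.16%. The median was -0.15, beside -0.12 for the inducible TRIM members. IRF7, the master transcription factor of type I interferon production, read 389 with sh-Luci and 234 with sh-BCLAF1-L, 1.66-fold lower. IFIH1, the double-stranded RNA sensor MDA5, read 304 and 193, 1.57-fold lower. IRF9, the DNA-binding subunit of the transcription complex that type I interferon activates, read 555 and 407, 1.36-fold lower. These transcripts of sensing and signal transduction lay outside the range of the inducible TRIM members. RIGI, the substrate of TRIM25, read 243 and 201, a difference of -0.28, and its 3 detected probe sets all differed by -0.19 or less, down to -0.51. MAVS, the mitochondrial adaptor downstream of it, read 477 and 563, a difference of 0.24, and was higher on all 4 detected probe sets. In the ISG15 conjugation list, which attaches a ubiquitin-like modifier, the modifier ISG15 (3377 and 2257) and the deconjugating enzyme USP18 (260 and 176) differed by -0.58 and -0.56, while the E2 enzyme UBE2L6 (887 and 952) differed by 0.10. The ligase HERC5 lay below detection.

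The enzymes that supply ubiquitin to TRIM ligases were nearer to 0 by their median. Of the 14 genes listed, 9 had a probe set and 8 were detected. Of these 8, 6 were lower, or 75%, beside 45.0% of all detected genes. On their brightest probe sets the median was -0.023 and none passed 0.32 on the log2 scale. UBA1, the main ubiquitin-activating enzyme, read 2114 and 1707, a difference of -0.31, but its other detected probe set differed by 0.14. UBE2N, which builds lysine-linked chains used in innate signalling, read 3037 and 2863, but its 3 detected probe sets ran from -0.33 to -0.09. UBE2D4, of the E2 family that most RING ligases use, read 1531 and 1638.

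**Figure D4:**
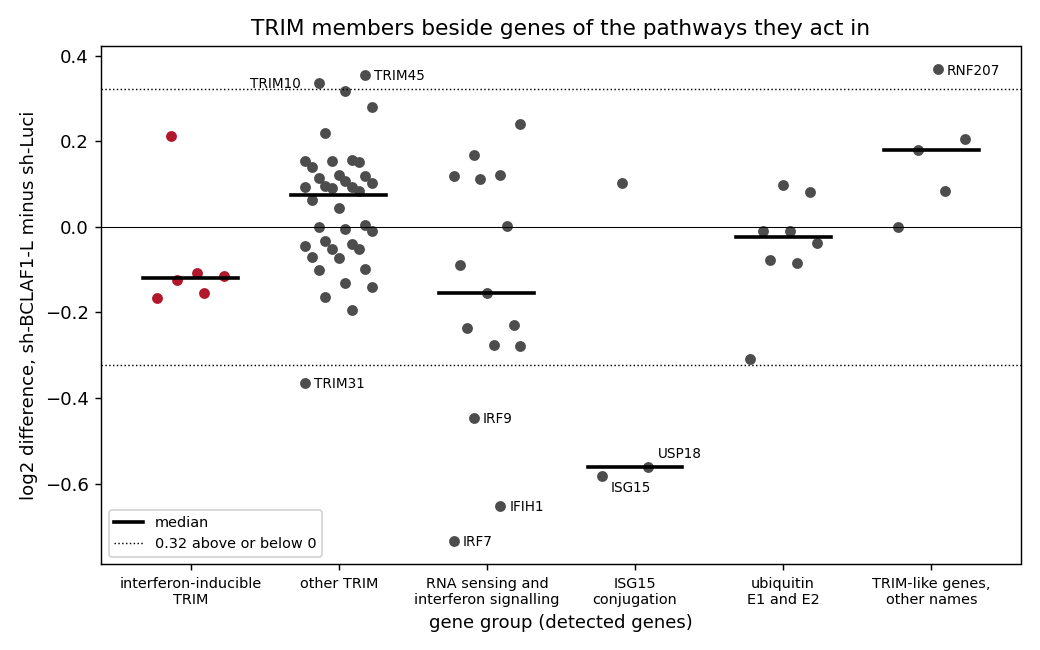
Log2 difference (y axis) of the detected genes in each group, 1 point a gene with the median as a bar and dotted lines 0.32 above and below 0, and names for genes past them. IRF7, IFIH1, IRF9, ISG15 and USP18 lie below the inducible TRIM members, of which none passes a dotted line.

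The 3 members past 0.32 were dim and rested on few probe sets. TRIM45, a member with a filamin-type domain, read 80.4 with sh-Luci and 103 with sh-BCLAF1-L, 1.28-fold higher, and its second probe set (71.2 and 81.1) differed by 0.18. TRIM10, an erythroid member, read 103 and 131, 1.26-fold higher on its only detected probe set. Its 3 undetected probe sets differed by 0.06, 0.52 and -0.35. TRIM31, a ligase of gastrointestinal epithelium that acts on MAVS, read 132 and 102, 1.29-fold lower on its only detected probe set, and its undetected ones differed by 0.38 and -0.02. TRIM45 alone of the 3 had a further detected probe set, and this did not pass the threshold. TRIM68, a cofactor of the androgen receptor, stood just under the threshold at 97.5 and 122, 1.246-fold higher on 1 probe set. TRIM29, a RING-less member of squamous epithelium, read 91.5 and 111 and was higher on all 3 probe sets, by 0.22 to 0.35.

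Dim members spread more widely than bright ones. The 23 detected members at or below an intensity of 275 had an SD of 0.18 and a median of 0.11, and the 23 above it an SD of 0.11 and a median of -0.034. Over all detected genes split at the same intensity the SDs were 0.19 and 0.15 and the medians 0.026 and 0.013. All of the 6 inducible members but TRIM21 fell in the brighter part, and TRIM21, with a mean of 260, lay close to the split. The part of brightness in the gap between inducible and other members was not tested.

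Among members outside the inducible set, the 4 chromatin regulators with a PHD finger and bromodomain differed by -0.05 to 0.15 on their brightest probe sets. TRIM28 (KAP1), the corepressor of KRAB zinc finger proteins, read 1697 and 1644, a difference of -0.05. TRIM33 (TIF1-gamma), a regulator of SMAD4, read 1191 and 1228 and spread from -0.09 to 0.12 over 4 probe sets. TRIM24 (TIF1-alpha), a nuclear receptor cofactor, read 668 and 742 and was higher on all 3 detected probe sets, by 0.15 to 0.24. The related TRIM66, without a RING finger, read 228 and 248. Of 8 partners of TRIM28 in heterochromatin formation, 5 were lower, or 62.5%, beside 45.0% of all detected genes. On their brightest probe sets the median was -0.076 and none passed 0.32, but the 3 detected probe sets of CBX3 ran from -0.34 to 0.00056. The deacetylase HDAC1 read 1323 and 1152, a difference of -0.20 that is larger in size than those of the 5 lower inducible members. The chromatin remodeller CHD3 read 428 and 373, also a difference of -0.20, and the methyltransferase SETDB1 read 138 and 141.

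Members with NHL repeats, which bind RNA or protein targets, showed the smallest spread of the classes with 3 detected members. TRIM2, a ligase of neurofilament light chain, read 482 and 483. TRIM32, mutated in a limb-girdle muscular dystrophy, read 540 and 527 and differed by -0.06 and -0.03 on its probe sets. TRIM3 read 134 and 144 and spread from -0.04 to 0.10 over 4 probe sets. On the brightest probe sets, the SD over these 3 genes was 0.071. TRIM71, the let-7 target LIN41, lay below detection at 29.6 and 26.1.

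PRY-SPRY members outside the inducible set went both ways. There were 21 detected, of which 10 were lower and 11 higher, with a median of 0.063. The lower share was 47.6%, beside 45.0% of all detected genes. TRIM26 (606 and 590) and TRIM69 (383 and 409), both with response-element letters in the promoter shown above, differed by -0.04 and 0.09. TRIM27, a nuclear ligase, read 655 and 684 and spread from -0.07 to 0.06. TRIM65, a ligase of MDA5, read 717 and 712. TRIM4, which acts on RIG-I, read 613 and 649, but its probe sets ran from -0.18 to 0.24. TRIM50 read 235 and 205, a difference of -0.19, the lowest of this class. TRIM16 (119 and 132) and TRIM16L (449 and 419), which RefSeq lists as a transcribed pseudogene, are near-identical copies, so how their signal divides is uncertain. All 27 PRY-SPRY members together had a median of -0.0089, and the 19 detected members without this domain one of 0.094.

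Members with no named C-terminal domain included 4 of 6 on the lower side, or 66.7% of a small class, beside 45.0% of all detected genes. TRIM8, a regulator of cytokine signalling, read 553 and 502, and was lower on all 4 detected probe sets, by 0.03 to 0.14 in size. It was, with TRIM15, TRIM25 and TRIM32, one of the 4 members lower on each of several detected probe sets. TRIM56, an antiviral ligase that has been described as interferon-inducible, read 743 and 717, a difference of -0.05, and 0.08 on the other probe set. TRIM40, a member of intestinal epithelium, read 94.8 and 84.5, a difference of -0.16. TRIM52 read 173 and 189. TRIM37, a MATH-domain ligase that limits centriole assembly, read 863 and 951 and differed by 0.14 and 0.37 on its probe sets. TRIM44, which has no RING finger, read 760 and 812 on the brightest probe set (0.09) and 173 and 154 on the next (-0.17). TRIM13, anchored in the endoplasmic reticulum, read 239 and 266 and spread from -0.09 to 0.33.

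Probe sets of a member often disagreed in sign. Of the 23 members with several detected probe sets, 9 had them all on 1 side (4 lower and 5 higher) and 14 did not, a share of agreement near the 45.0% of all detected genes with several probe sets. TRIM4, TRIM13, TRIM14 and TRIM38 had detected probe sets of opposite sign at least 0.3 apart. For the other 23 detected members only 1 probe set was detected, so this comparison was not possible.

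Members next to each other in the RefSeq gene order did not share a direction throughout. In the chromosome 6 group of TRIM31, TRIM40, TRIM10, TRIM15 and TRIM26, the differences were -0.36, -0.16, 0.34, -0.05 and -0.04. In the chromosome 5 group, TRIM7 (474 and 433) differed by -0.13 while TRIM41 and TRIM52 differed by 0.11 and 0.12. TRIM47 and TRIM65 on chromosome 17 differed by -0.0044 and -0.0089.

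Several of the undetected members are genes of muscle, nerve or blood. They include the muscle ring finger genes TRIM54 (49.0 and 62.3), TRIM55 (23.8 and 30.9) and TRIM63 (39.96 and 45.98), the neuronal TRIM9 (53.3 and 46.0) and the erythroid TRIM58 (23.0 and 20.2). TRIM6, TRIM17, TRIM51, TRIM59, TRIM64EP and TRIM71 complete the 11. Of these 11, 3 were higher by more than 0.32 (TRIM51, TRIM54 and TRIM55) and 1 was lower by as much (TRIM59), beside 14.0% and 7.8% of all genes below detection. By mean intensity, TRIM54 was the member just outside detection and TRIM61 (75.3 and 75.5) the one just inside. Detection did not follow such tissue names throughout, since TRIM10, called erythroid above, was detected (103 and 131). Also detected were TRIM46 (134 and 128) and TRIM67 (95.9 and 112), of the domain class of TRIM9. TRIM42 (79.9 and 89.0), of the class of TRIM54, TRIM55 and TRIM63, was detected too.

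Of 5 genes listed as TRIM-like under other names, not all with the full motif, 1 was lower on its brightest probe set. This was 20%, beside 45.0% of all detected genes. The median difference of the 5 was 0.18. PML, the organizer of nuclear bodies and itself known as interferon-inducible, read 182 on both arrays on its brightest probe set, while its 8 detected probe sets ran from -0.43 to 0.30. MID1 read 95.4 and 108, and MID2 read 539 and 571, but the other detected probe set of MID2 differed by -0.16. MEFV read 205 and 237, a difference of 0.21, on its only detected probe set. RNF207, with a RING finger and B-box, read 297 and 384, 1.29-fold higher, but another of its 5 detected probe sets differed by -0.10. The antisense transcripts TRIM52-AS1 (145 and 144) and TRIM67-AS1 (172 and 160) were not counted as members.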

How the data were processed

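Total RNA of 2 RKO cultures was labelled from 200 ng with a kit that primes from the 3′ end, per the labels' protocols, and each culture was hybridised to 1 Affymetrix array. The deposited values are linear intensities of 54675 probe sets, for which the submitters' processing notes name RMA; the sources used here do not name the program, its version or the final scaling, and the number of arrays limits the precision. Gene names came from the platform annotation (41097 probe sets with 1 symbol, 1801 with several, 11777 with none) and were updated by Entrez identifier through RefSeq (GRCh38.p14), which held 41043 of the first. No member was renamed. Left out were 13 probe sets that name a TRIM gene among several symbols, and 37 of the 94 TRIM genes in RefSeq had no probe set of their own.

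Intensities were used as log2(value + 1), in Python 3.11.15 with pandas 2.3.3. The design had allowed for log2 or linear values. Detection was the 40th percentile of all probe sets' mean log2 level. Calls were made at a log2 difference of 0.32 and at 1.5-fold, without a test. Members and lists were chosen with earlier results of these data known. Named were the inducible members, members past 0.32, the brightest, those whose probe sets disagree by 0.3, list genes past 0.32 and RIGI and PML; other members and list genes were named as examples after their values were seen. Domain classes were written from general knowledge. The functions were tested on simulated data with changes of 0.32 or more in size, the same for all probe sets of a gene. This does not show how well differences as small as those of the inducible members are measured. Lowess curves used statsmodels 0.14.6.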

Additional observations from a re-analysis of the deposited data

How the results depend on the processing

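No paired analysis was possible because there was 1 array a group, and leaving out a replicate was not possible either. The median of the inducible members stayed between -0.14 and -0.11 and that of the others between 0.025 and 0.088 over the 9 alternatives run, with a gap of -0.20 to -0.13. Not all of these could move the values. Dropping the filter, the 60th percentile and a stricter symbol match (TRIM and digits alone) left the inducible median at -0.12. Subtracting the median difference shifts all genes equally, so the gap stayed at -0.19. The lower count stayed 5 of 6 inducible members wherever all 6 were measured, but with the median over probe sets TRIM38 was lower (-0.09) and TRIM5 higher (0.18). Without _s_at, _x_at and _a_at probe sets, 3 inducible members were left, and the remaining brightest probe set of TRIM14 was dim and differed by 0.21. A wider group with TRIM26, TRIM31, TRIM56 and TRIM69 had a median of -0.11. Of its 10 detected members, 8 were lower, beside 45.0% of all detected genes. This group contains the same 6 members, so its median is not independent of theirs. The added TRIM26, TRIM31, TRIM56 and TRIM69 differed by -0.04, -0.36, -0.05 and 0.09, and TRIM31 rested on 1 detected probe set. No detected member passed 1.5-fold in any alternative.

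At 0.32, the count of higher members was 0 with the median over probe sets or a pseudocount of 32. It was 3 of 37 members without _s_at, _x_at and _a_at probe sets. Without a filter it was 5 of 57, beside 1340 of all 19775 genes. It was 1 when detection was set at the 60th percentile, after subtraction of the median difference, and after subtraction of the lowess curve. The count of lower members was 0 with the median over probe sets, without _s_at, _x_at and _a_at probe sets, and with a pseudocount of 32. Without a filter it was 2 of 57, beside 731 of all 19775 genes. No share of all genes is given here for the other alternatives. TRIM31 differed by -0.02 with the median over probe sets and TRIM37 by 0.37 without _s_at, _x_at and _a_at probe sets. The causes were not tested. The spread between cultures is not measured, so differences of this size cannot be told from it.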
